A study of Mus musculus with 4 samples.

Results

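The Prdm16 locus is the stretch of mouse chromosome 4 that holds Prdm16, taken here as the RefSeq gene body (154316122 to 154637360 in mm10, 321 kb, on the minus strand) widened by 50 kb on both sides. Its members are the 162 entries, of 101350 in all, of the authors' deposited table of differentially methylated regions that share at least 1 bp with this window. They comprise 69 regions in the CG context, 90 in the CHH context and 3 in the CHG context. H is any base but G. The locus was chosen by the number and direction of these regions, from the same contrast, so all values of the members below are a description and none supports a claim about the gene. Bisulfite sequencing of the whole genome gave the methylation of somatosensory cortex in mice aged 2.5 months. The groups were Nsd1Nex-cKO, in which Nsd1 is deleted through Nex (cKO, 2 libraries), and Nsd1fl/+, mice with 1 floxed and 1 wild-type Nsd1 allele (control, 2 libraries); whether controls carry the Cre is not in the labels. Nex (Neurod6) is active in excitatory neurons, and the tissue also holds interneurons, glia and vessels. A large loss in some cells and a small one in all cells cannot be told apart, and cell type markers cannot be checked in a table of methylated regions.

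PRDM16 is a zinc finger transcription factor with a PR domain, a relative of the SET domain of histone methyltransferases. It is known for setting the identity of brown fat cells and for keeping stem cells, and in the embryonic cortex it acts in radial glia, the neural stem cells, where it shapes the output and placement of upper layer neurons. NSD1 methylates lysine 36 of histone H3, a mark that the DNA methyltransferases DNMT3A and DNMT3B read. Neurons carry methylation at CG sites, as most cells do, and after birth also gain methylation outside CG, placed by DNMT3A.

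All levels below are the means per group in the authors' deposited table, given there as fractions and printed as percents. The table holds no value per library, so no spread between libraries, interval or test can be set beside a difference, and depth is unknown. It lists called regions only, so a place with no region has no level here. The number of cytosines of a region counts both strands. It equalled the count from sequence in 202 of 211 CG regions and in 42 of 42 CHH regions that lie inside a RefSeq promoter window.

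The sequences that bear on the map are 3 promoter windows of RefSeq (GRCm38.p6, 250 bases before to 50 after a start), shown because the first is covered whole by a CG region and the others lie in a gap without any region at the start of the gene. Capitals mark CG dinucleotides, each strand read 5′ to 3′. Gm13133 is a long non-coding RNA gene inside Prdm16 (window chr4:154550032-154550331, plus strand), Prdm16 has its window at chr4:154636824-154637123 (minus strand), and Prdm16os is a long non-coding RNA gene that starts in the opposite direction (chr4:154637330-154637629, plus strand).
Gm13133: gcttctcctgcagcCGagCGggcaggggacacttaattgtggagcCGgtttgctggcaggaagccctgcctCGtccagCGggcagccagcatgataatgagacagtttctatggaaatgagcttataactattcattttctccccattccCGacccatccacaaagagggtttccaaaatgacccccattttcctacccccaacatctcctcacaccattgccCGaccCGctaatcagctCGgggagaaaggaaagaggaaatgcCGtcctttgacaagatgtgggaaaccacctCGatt
Prdm16: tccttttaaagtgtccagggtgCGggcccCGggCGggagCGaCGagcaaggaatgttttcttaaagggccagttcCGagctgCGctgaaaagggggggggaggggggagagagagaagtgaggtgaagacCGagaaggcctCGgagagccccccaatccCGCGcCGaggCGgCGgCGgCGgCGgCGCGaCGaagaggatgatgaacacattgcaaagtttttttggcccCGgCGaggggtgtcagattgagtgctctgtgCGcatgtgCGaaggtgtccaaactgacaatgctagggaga
Prdm16os: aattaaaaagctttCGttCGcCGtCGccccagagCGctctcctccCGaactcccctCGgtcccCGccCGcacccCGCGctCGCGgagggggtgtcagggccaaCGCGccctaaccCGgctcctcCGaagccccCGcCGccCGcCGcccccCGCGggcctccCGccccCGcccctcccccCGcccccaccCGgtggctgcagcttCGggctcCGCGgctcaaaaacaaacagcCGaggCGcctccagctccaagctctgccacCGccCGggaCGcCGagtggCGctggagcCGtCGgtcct
They hold 11, 24 and 39 CG dinucleotides. Of the 32851 promoter windows in the table, whose median is 7, at least as many were found in 41.4%, 19.98% and 4.45%.

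Every listed region of the locus was lower in cKO, in all contexts. In the CG context 69 of 69 were lower, where 94.4% of all listed CG regions were. In the CHH context 90 of 90 were lower, against 84% of all listed CHH regions, and in the CHG context 3 of 3, against 75.6%. As the locus was picked for its losses, nothing is read from these shares.

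At CG sites, about 76% methylation in control stood against about 41% in cKO. In the authors' deposited table, the 69 CG regions had a median of 76.3% in control (quartiles 66.6% and 83.5%, range 37.7% to 96.9%) and 40.8% in cKO (quartiles 33.0% and 52.0%, range 15.9% to 65.8%). The median difference, cKO minus control, was -31.8 points, and the smallest and largest were -17.8 and -44.4 points. In 20 of the 69 (29.0%) the cKO level was under 0.5 of the control level, and in 16 (23.2%) it was below 30%, close to the 30.5% and 21.5% of all listed CG losses. These levels are close to those of all 44497 listed CG losses, which had medians of 76.0% in control, 42.4% in cKO and -31.2 points. Across the 69 regions the levels of the groups went together (Spearman's rho = 0.90, Pearson's r = 0.87, a description of regions that share libraries).

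Outside CG, methylation was low in control and lower still in cKO. In the authors' deposited table, the 90 CHH regions had a median of 6.35% in control (range 3.32% to 15.2%) and 1.47% in cKO (range 0.373% to 6.96%), with a median difference of -4.82 points (range -11.2 to -2.92). The cKO level was below 2% in 67 of the 90 (74.4%), against 87.7% of all listed CHH losses. All 45012 listed CHH losses had medians of 5.52% in control and 1.01% in cKO, so both groups were higher at the locus, and 8 of its 90 regions (8.89%) reached 10% in control, against 3.76% of all. All 17 listed regions on mitochondrial DNA were also lower in cKO, and the 4 of them in the CHH context had 6.52% in control and 0.510% in cKO, weighted over 3967 cytosines, with a median difference of -5.87 points. Of the 90 CHH regions at the locus, 24 (26.7%) differed by more than that median, against 16.1% of all listed CHH losses, and 43 had a control level above the mitochondrial one. The part that what moves the mitochondrial values has in the CHH differences at the locus was not tested.

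**Figure D1:**
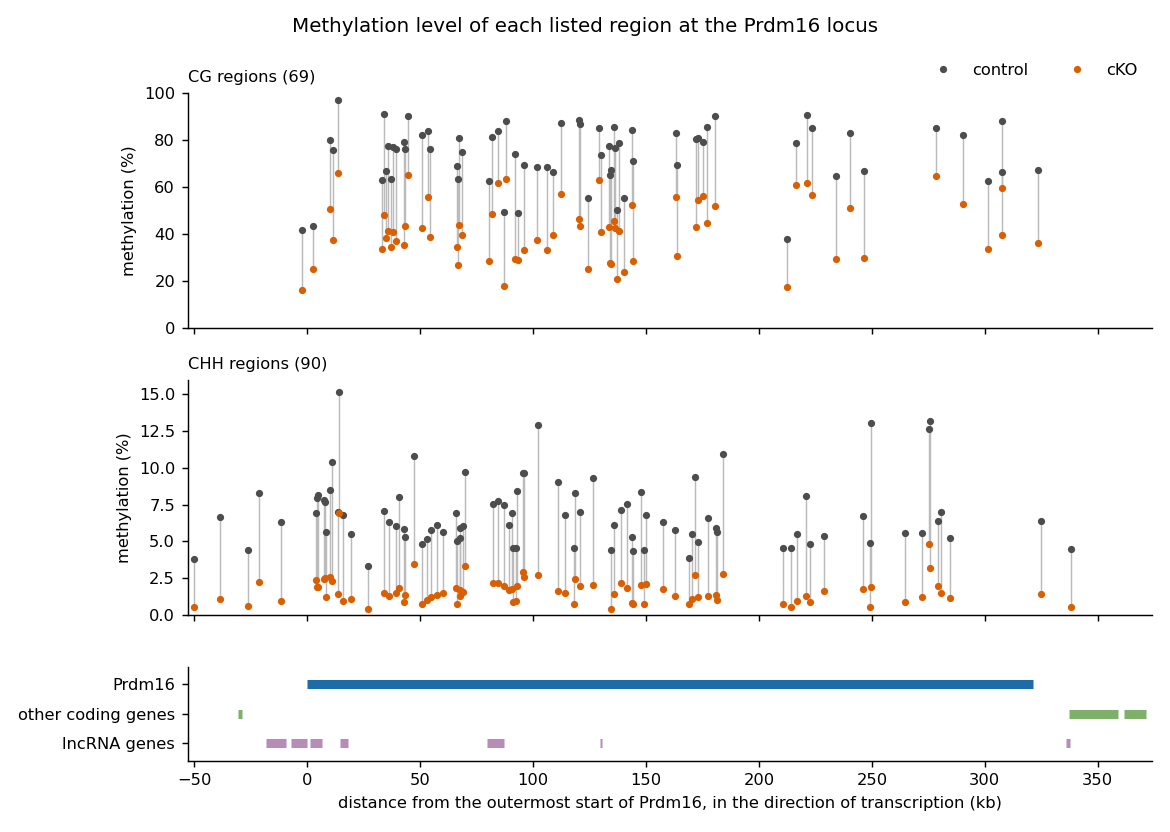
Methylation level (%, vertical axes) of each listed region in control (grey) and cKO (orange), joined by a line, against the distance of its midpoint from the outermost start of Prdm16 (kb), for the 69 CG regions (top) and 90 CHH regions (middle), with genes of the window below. Every cKO point lies under its control point, and regions thin out towards the end of the gene.

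Most of the regions lay in the gene body and few beside it. As the locus was picked as a gene with many losses, nothing is read from this contrast. In the authors' deposited table, 153 of the 162 regions (67 CG, 83 CHH and 3 CHG) overlapped the gene body, where CG losses had a density of 20.9 and CHH losses of 25.8 per 100 kb. Counted by midpoint, the 50 kb before the start held 1 CG loss and 4 CHH losses, or 2 and 8 per 100 kb. The 50 kb after the end held 1 and 2, or 2 and 4 per 100 kb. Farther out, between 50 and 500 kb on both sides, densities ran from 2 to 9 per 100 kb for CG losses and from 0 to 10 for CHH losses. The regions covered 35.1 kb, or 10.9% of the gene body, of which CG regions made 22.4 kb and CHH regions 15.5 kb, with some bases in both.

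**Figure D2:**
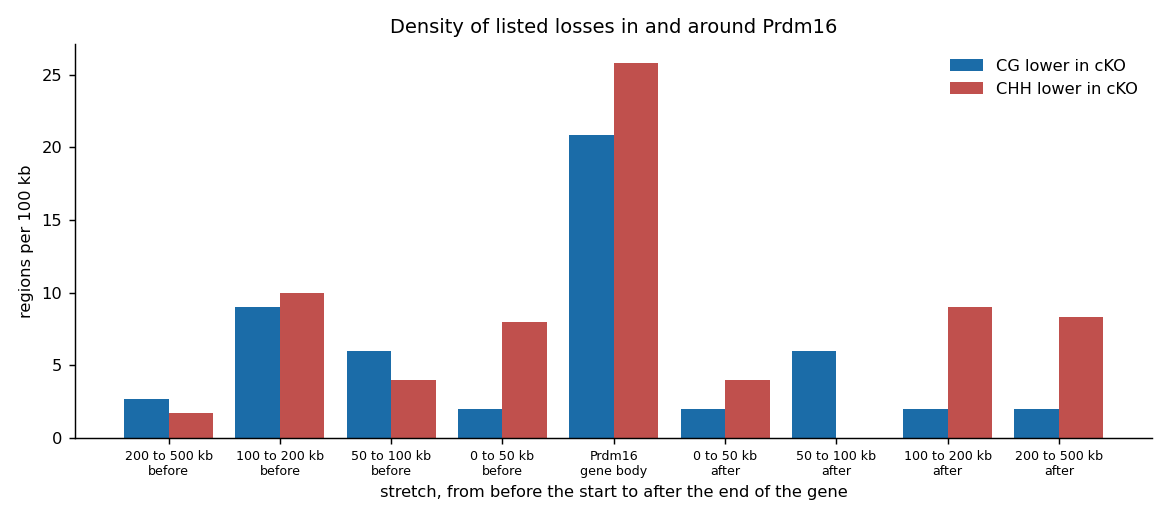
Number of CG (blue) and CHH (red) regions lower in cKO per 100 kb (vertical axis) in stretches before, inside and after Prdm16 (horizontal axis), counted by midpoint. The gene body stands at 20.9 and 25.8, and no other stretch exceeds 10.

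At the edges of the window the members were sparse. The outermost region before the start straddles the edge (chr4:154687326-154687427, CHH, 3.77% in control, 0.524% in cKO), and the first one outside is a CG region that was 49.1% in control and 25.4% in cKO. On the other side the outermost member lies in Arhgef16 (chr4:154298943-154299105, CHH, 4.48% in control, 0.536% in cKO). The first region outside there, in Megf6, was higher in cKO (29.8% in control, 51.2% in cKO over 9 cytosines).

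Within the gene, most losses lay in the part nearer its start, though the first 3 bins of 10 kb held 1, 3 and 0 CG regions. Cut into 4 stretches of 80.3 kb from the start, the gene body held 21, 27, 13 and 6 CG regions and 31, 27, 15 and 10 CHH regions. The first 161 kb thus held 48 of 67 CG and 58 of 83 CHH regions. The median CG difference was -35.2, -32.9, -29.0 and -28.6 points in the 4 stretches, while the CHH medians showed no such order (-4.91, -5.20, -4.49 and -4.84 points). Region by region the trend in CG was weak (Spearman's rho of the difference with the distance from the start = 0.13, 69 regions).

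In bins of 10 kb, 32 of which lie whole in the gene, 23 held a CG region, 24 a CHH region, 20 both and 5 neither. The densest bins for CG, with 7 regions each, lie 30 to 40 kb and 130 to 140 kb from the start. The densest for CHH, also with 7, lies at 60 to 70 kb, where 4 CG regions bring the total to 11. The counts of CG and CHH regions per bin went together (Spearman's rho = 0.57, Pearson's r = 0.46). The density of cytosines and the coverage per bin were not measured, and their part in this was not tested. The longest stretch without any region spans 26.3 kb (chr4:154426987-154453245). For CG regions alone the longest gaps are 31.5 kb and 31.1 kb, and for CHH regions alone 40.4 kb, across the last part of the gene.

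**Figure D3:**
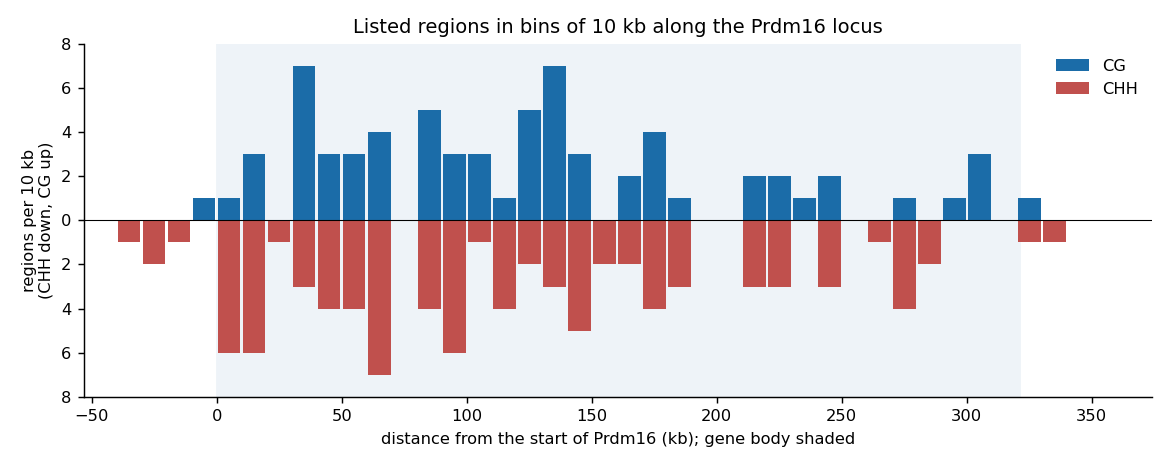
Number of CG regions (blue, upward) and CHH regions (red, downward) per bin of 10 kb against the distance from the start of Prdm16 (kb), with the gene body shaded. CG regions peak at 7 in 2 bins and CHH regions at 7 in 1 bin, and 5 of the 32 bins in the gene are empty.

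CG and CHH regions lay close to each other. In the authors' deposited table, the median gap from a CG region to the next CG region was 2.11 kb (quartiles 0.599 and 5.01 kb) and from CHH to the next CHH 2.45 kb (quartiles 1.09 and 4.66 kb), while from any region to the next of any context it was 844 bp. From a CHH region to the nearest CG region the median gap was 945 bp, and 46 of 90 (51.1%) lay within 1 kb of one. From a CG region to the nearest CHH region it was 314 bp, and 49 of 69 (71.0%) lay within 1 kb. Over all listed losses the median gap from CHH to the nearest CG region was 7.63 kb, with 21.4% within 1 kb, and from CG to CHH 7.67 kb, with 22.0% within 1 kb. Short gaps follow in part from the number of regions in the gene, which the choice of the locus used.

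Of the 90 CHH regions, 21 overlapped a CG region, in 22 pairs that share a median of 114 bp, and 8 of these pairs had the CHH region wholly inside the CG region. The CHH levels did not order by distance from CG regions. The median difference was -4.68 points in those that overlap one, -4.95 in the 25 that lie up to 1 kb away and -4.73 in the 44 that lie farther. For CG regions the medians were -37.5 points in the 22 that overlap a CHH region, -29.5 in the 27 up to 1 kb away and -29.1 in the 20 farther away. The overlapping CG regions were also longer, with a median of 457 bp against 185 and 128.5 bp, and longer CG regions had larger losses (Spearman's rho of length with the difference = -0.52, 69 regions). The part of length in that contrast was not tested.

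Joined where no more than 1 kb separates them, the 162 regions fell into 78 clusters, of which 44 were single regions. The other 34 included 26 with both CG and CHH regions, which together held 99 regions. The largest cluster, 3.95 kb long and 65.7 kb from the start (chr4:154567667-154571611), held 4 CG and 6 CHH regions. Its CG regions lay between 63.3% and 80.5% in control and between 26.6% and 43.9% in cKO. Its CHH regions lay between 5.03% and 9.70% in control and between 0.708% and 3.32% in cKO. The second, 5.26 kb long, held 6 CG and 2 CHH regions (chr4:154599407-154604667).

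By the authors' area statistic, the first regions of both contexts lay side by side, 40 to 43 kb from the start. That statistic is a score summed over the cytosines of a region, so their number also counts. The first CG region of the locus was chr4:154594216-154595108, with 70 cytosines at 78.9% in control and 35.1% in cKO. It ranked 15 among all 44497 listed CG losses. The first CHH region was chr4:154596204-154597292, at 8.02% in control and 1.81% in cKO over 390 cytosines, and it ranked 4 among the 45012 listed CHH losses. It is 1089 bp long, where the next longest CHH region of the locus has 436 bp, and 1095 bp separate it from the first CG region. By size of difference within the locus, the CG region ranked 2 of 69 and the CHH region 19 of 90. A shorter CHH region sat inside the CG region (chr4:154594293-154594561, 5.81% in control, 0.906% in cKO), and the third cluster of this stretch ended with a CG region of 780 bp at 62.8% in control and 33.6% in cKO (chr4:154603888-154604667).

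**Figure D4:**
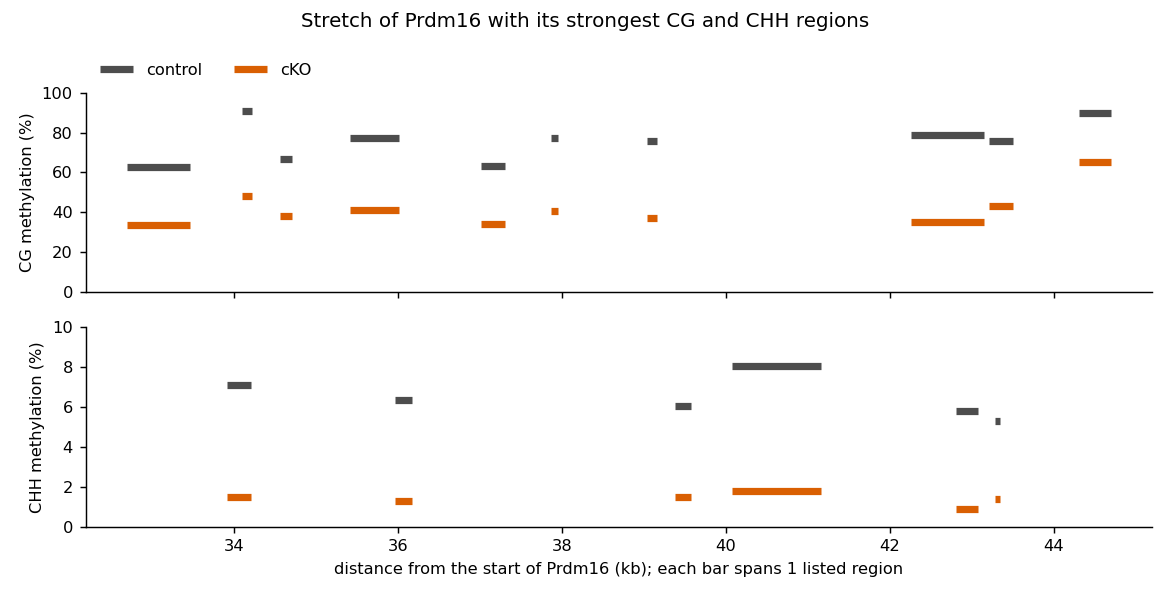
Methylation level (%) of the CG regions (top) and CHH regions (bottom) in the stretch 32.7 to 44.7 kb from the start of Prdm16, in control (grey) and cKO (orange); each bar spans 1 region. The CG bars lie between 62.8% and 91.0% in control and between 33.6% and 65.2% in cKO, and the long CHH bar at 40 to 41 kb drops from 8.02% to 1.81%.

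Long CG regions were common in the gene. The next CG regions by area statistic were 1263 bp long, the longest of the locus (chr4:154540606-154541868, 69.1% in control, 33.0% in cKO), 934 bp (chr4:154549671-154550604, 49.4% and 17.6%) and 625 bp (chr4:154556678-154557302, 62.5% and 28.5%). Those of rank 5 to 10 ran from 509 to 1117 bp, at 62.8% to 82.1% in control and 28.3% to 42.5% in cKO. Of the 69 CG regions, 17 (24.6%) had at least 500 bp, against 4.95% of all listed CG losses, and they made 58.2% of the CG bases. Their median difference was -37.6 points, that of the 52 shorter ones -30.2 points, and that of all 2202 listed CG losses of this length -36.5 points. The number of cytosines per region had a median of 16 at the locus and 9 over all CG losses. Among the first 100 CG losses of the whole table by area statistic, 7 lay here, where the locus holds 69 of all 44497. Among the first 100 CHH losses 1 lay here. The locus was picked for its losses, and a score summed over cytosines favours long regions, so nothing is read from these counts.

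The largest CG difference over at least 10 cytosines was in a region of 992 bp, 91.9 kb from the start (chr4:154544994-154545985), at 73.8% in control and 29.4% in cKO. The first CG region by area statistic followed with -43.8 points, then chr4:154516601-154516779 (86.6% in control, 43.4% in cKO) and chr4:154492854-154493362 (71.0% and 28.3%). The largest CHH difference was at chr4:154387510-154387766, 250 kb from the start, with 13.0% in control and 1.87% in cKO. A CHH region at chr4:154623237-154623349 stood apart. It had the highest level of the locus in both groups, 15.2% in control and 6.96% in cKO over 40 cytosines, while the region next to it (chr4:154623484-154623772) had 7.03% and 1.45%.

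The 3 CHG regions lay 121 to 222 kb from the start, each within 1 kb of a CG region. They held 13 to 24 cytosines, with 8.31%, 9.05% and 10.4% in control and 1.003%, 0.820% and 1.16% in cKO. The 3 listed CHG regions on mitochondrial DNA had similar levels, 9.55% in control and 0.321% in cKO, weighted over 41 cytosines. The part that what moves the mitochondrial values has in these CHG differences was not tested. One of the CHG regions of the locus (chr4:154516701-154516795) overlapped both a CG and a CHH region.

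The stretch around the outermost start of the gene was free of listed regions. Other transcript starts inside Prdm16 were not looked at. A gap of 4.67 kb (chr4:154634792-154639460) holds the promoter windows of Prdm16, Prdm16os and 5930403L14Rik, a long non-coding RNA gene inside Prdm16, with 105 CG dinucleotides in the 3 windows. The Prdm16 sequence shown above lies 2.03 kb from the nearest CG region and 3.31 kb from the nearest CHH region. On both sides the gap ends at a CG region of low control level. That inside the gene, in 5930403L14Rik, was 43.4% in control and 25.1% in cKO over 15 cytosines. That before the start, in Prdm16os, was 41.8% and 15.9% over 7 cytosines. As the table lists called regions only, the level inside the gap is not known here.

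The Gm13133 start was the 1 RefSeq promoter window, of 9 in the locus, that a listed region touched. The share touched over all 32851 promoter windows was not computed, so nothing is read from this count. The CG region there (chr4:154549671-154550604) holds 72 cytosines, of which the window shown above accounts for 22, and was 49.4% in control and 17.6% in cKO. Gm13133 itself, 7.36 kb long, overlapped 4 CG and 3 CHH regions, all lower in cKO. Of the 69 CG regions 5 had under 50% in control, and these include that region and the pair beside the start of Prdm16. The other two lay 93.3 kb and 213 kb from the start, at 48.9% and 37.7% in control and 28.7% and 17.4% in cKO.

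The remaining genes of the window carried few regions. Actrt2 and Gm52687 overlapped 0, and Arhgef16, a guanine nucleotide exchange factor, Gm13110 and Gm52689 overlapped 1 CHH region each. Gm52688, inside Prdm16, overlapped 1 CG region. Megf6, of which only the end reaches into the window, overlapped 4 CG regions lower and 1 higher in cKO and 7 CHH regions lower, all of them outside the window.

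Set against other genes by length, Prdm16 led in both contexts, which is also how it came to be chosen. Among the 4935 protein-coding genes of at least 50 kb, of which 42.5% overlapped a CG loss and 33.3% a CHH loss, it had the most CG losses per 100 kb (20.9) and the most CHH losses per 100 kb (25.8). The 95th percentiles were 6.90 and 6.34 per 100 kb. By CG losses it was followed by Rfx8 (19.8 per 100 kb), Tspan18 (19.6), Parvb (19.1) and Cfap77 (19.1). The lead in CG was narrow: with CG differences of at least 30 points Prdm16 ranked 8, and with regions of at least 10 cytosines 2. By CHH losses it ranked 2 when base pairs were counted in place of regions, and 2 among differences above the mitochondrial median. Of 33 genes with at least 20 CG regions and at least 20 CHH losses, Prdm16 had the largest share of CG losses of 500 bp or more (25.4%, median of these genes 6.52%). It ranked 2 for the share of CHH losses within 1 kb of a CG loss (55.4%, median 34.8%). The sizes of its differences were in the middle of these genes, at rank 13 for both the median CG difference (-32.7 points) and the median CHH difference (-4.73 points).

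The genes most like Prdm16 were found by the distance between the log2 densities of CG and of CHH losses, over 35 other genes of at least 50 kb with at least 20 regions in each context. Nearest was Tspan18, a tetraspanin, with 26 CG and 21 CHH losses (19.6 and 15.8 per 100 kb, distance 0.71). Gli2, a transcription factor of the Hedgehog pathway, followed with 22 and 36 (distance 1.25). Then came Chd7, a chromatin remodeller, with 21 and 20 (1.46), Creb5, a transcription factor, with 44 and 49 (1.48), and Kif6, a kinesin, with 27 and 39 (1.53). None of these 5 overlapped a CG or a CHH region higher in cKO, where 7.26% and 15% of all protein-coding genes, of any length, did. The next gene by distance, Nhsl1, overlapped 1 CHH region higher in cKO. As the 5 are few and were picked by their losses, nothing is read from this count.

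In the rest of the PRDM family regions were fewer. Of 14 other members, 6 overlapped a CG region lower in cKO and 0 one higher, where 18.6% and 7.26% of all protein-coding genes did. For CHH, 4 overlapped a lower and 4 a higher region, against 15.2% and 15% of genes. Among protein-coding genes of at least 50 kb, 42.5% overlapped a CG loss and 33.3% a CHH loss. Of the 6 members with a CG loss, only Prdm8 is shorter than 50 kb. Mecom, the closest relative of Prdm16, which acts in blood stem cells, held 24 CG and 31 CHH regions, all lower in cKO, over 558 kb (4.30 and 5.55 per 100 kb). Its strongest CG region (chr3:30416094-30416740) had 78.4% in control and 43.5% in cKO. Prdm1, which directs the maturation of plasma cells, held 3 CG and 12 CHH losses, the strongest CG loss at 88.9% in control and 43.2% in cKO. Prdm6 held 2 and 12 losses, and Prdm8, a factor of developing neurons, a CG loss at 32.3% in control and 11.4% in cKO. Prdm10 and Prdm11 overlapped CHH regions higher in cKO, 6 and 4 of them, and Prdm10 also 1 CG region that was lower (85.1% in control, 61.8% in cKO). The strongest of these CHH regions had 3.54% in control and 12.6% in cKO in Prdm10, and 1.44% and 10.4% in Prdm11.

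Of 14 partners and cofactors of PRDM16, 4 overlapped a CG loss and 4 a CHH loss, and 2 overlapped a gain in each context. Of all protein-coding genes, 18.6% had a CG loss, 15.2% a CHH loss, 7.26% a CG gain and 15% a CHH gain. The partners with a loss are all longer than 50 kb. Of protein-coding genes of at least 50 kb, 42.5% had a CG loss and 33.3% a CHH loss. Ctbp2, a corepressor that PRDM16 binds, held 13 CG losses, the strongest at 46.9% in control and 19.1% in cKO, and 1 CHH loss. Ebf2, a transcription factor of brown fat precursors, held 7 CG and 24 CHH losses (68.1% and 40.6% in its strongest CG region). Zfp516, a transcription factor of brown fat, held 8 CG losses, 1 CG gain and 6 CHH losses. Ppargc1a, a coactivator of mitochondrial genes, held 3 CG losses (43.6% in control and 15.2% in cKO in the strongest) and 8 CHH gains. Smarca4, an ATPase of chromatin remodelling, held 3 CG gains (47.2% in control, 68.8% in cKO). Ctbp1, Cebpb, Pparg, Med1, Hdac1, Hdac3 and Ski overlapped 0 CG and 0 CHH regions. Of 8 genes of the brown fat programme, 2 overlapped a CG loss (18.6% of all genes), Dio2, an enzyme that activates thyroid hormone, with 3 (71.7% and 32.8% in the strongest) and Adrb3, an adrenergic receptor, with 1. Cidea, a lipid droplet protein, and Elovl3, an enzyme that lengthens fatty acids, overlapped 1 CHH loss each. Ppargc1b, a coactivator related to Ppargc1a, overlapped 1 CG gain (67.0% in control, 86.9% in cKO) and 4 CHH gains. Ucp1, the uncoupling protein of brown fat, overlapped 1 CHH region, which was higher in cKO (0.996% in control, 6.50% in cKO).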

How the data were processed

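The data are whole-genome bisulfite sequencing of 2 cKO and 2 control libraries. Per the labels' protocols, DNA was extracted with CTAB, sheared, bisulfite treated and amplified by PCR; CASAVA, Bowtie2 and mm10 appear in the submitters' processing notes, without versions or roles. The authors deposited 1 table of called regions with the mean methylation of each group as a fraction, their difference, which equals cKO minus control within 1e-09 in every row, and an area statistic, a score used here only to rank or filter. Not given in the sources used here are the region caller, its thresholds, the pooling of replicates and the conversion rate. Incomplete conversion would raise most the low levels outside CG, in the CHH and the CHG context alike. Replicates carry numbers, but no label ties a number to an animal.

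Regions were placed on RefSeq genes (GRCm38.p6, the assembly of mm10; 21792 protein-coding genes once genes starting within 3 Mb of a chromosome's first base, on autosomes and the X, were dropped) by an overlap of at least 1 bp. Distances run from the outermost start of Prdm16. Exons and introns were not analysed here. Gaps, clusters, bins and densities were computed with Python 3.11.15, pandas 2.3.3 and numpy 2.4.6, and the interval functions were tested on simulated data. The named regions are, per context, the 10 with the largest absolute area statistic and 4 more by size of difference among those with at least 10 cytosines. In the gene lists, the strongest region of a gene is that with the largest absolute area statistic. No test was run. The members and the gene lists were chosen with earlier results of these data known. Alternatives changed the window, the overlap, filters on regions, the joining gap, bin width and gene length.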

Additional observations from a re-analysis of the deposited data

How the results depend on the processing

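Of 60 alternative values of the 10 main results, 48 stayed within 1.5 times of the reported value and 12 moved. For a share the limit was its 95% exact binomial interval. Regions share libraries and are not independent, so that interval served only as a limit and measures no spread. A change of sign could not occur, as the regions were nearly all losses and the other results are never negative. With differences of at least 30 points in CG and 5 points outside CG, 43 CG and 41 CHH regions were left at the locus, the rank by CG losses per 100 kb was 8, and 3 PRDM family members had a CG loss. That rank was 2 with regions of at least 10 cytosines and 2 with an area statistic at or above the median of its context. The rank by CHH losses per 100 kb was 2 under that area filter, 2 by base pairs in place of regions, and 2 with CHH differences above the mitochondrial median only, a filter chosen after seeing the data, which left 24 CHH regions. With gene bodies widened by 50 kb, 10 PRDM family members had a CG loss, 12 a CHH loss and 2 a CG gain (0 in gene bodies). At this width 13 of the PRDM16 partners had a CG loss (4 in gene bodies). The share of all protein-coding genes at this width was not computed, so nothing is read from these counts. PRDM members with a CHH gain went from 4 to 2 under the difference, area and mitochondrial filters. Widening the locus to 100 kb on both sides gave 75 CG and 91 CHH regions lower in cKO, against 69 and 90. It also added 1 CG region higher in cKO. Leaving out each replicate and the replicate block were not run. No paired analysis was possible because the table holds 1 mean per group and no values per library. Depth and the spread between libraries are unknown.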

Other observations

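In windows of 421 kb, the length of the locus with its flanks, 2 places that do not overlap held at least the 69 CG losses of the locus. One was Prdm16 itself, where a window shifted towards the region before the start held 74. The other, chosen after its value was seen, lies on chromosome 5 (111504033 to 111925271), held 71, and contains no protein-coding gene body that overlaps a CG loss.

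Inside Nsd1, the targeted gene, 5 CHH regions were higher in cKO, at 0.405% to 0.834% in control and 4.77% to 7.90% in cKO. The 2 CHG regions there were higher too, at 0.475% and 0.380% in control and 9.43% and 10.7% in cKO. The 1 CG region there was lower in cKO, as those of Prdm16 were, at 50.4% in control and 29.8% in cKO.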
